A study of Homo sapiens with 3 samples.

Results

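The miR-29 family was examined in MV4-11 cells, a human acute myeloid leukemia (AML) line that carries an internal tandem duplication of FLT3 and the MLL-AF4 fusion. Members were taken by name. All 4 hairpins of the family, hsa-mir-29a, hsa-mir-29b-1, hsa-mir-29b-2 and hsa-mir-29c (miR-29a, miR-29b-1, miR-29b-2 and miR-29c here), had a row among the 661 listed hairpins, and 7 mature miRNAs of the family were found among 783 mature names. The 3 samples form a single group of replicates, termed EV, and are labelled FLT3-ITD+ and WT in genotype. EV stands for the empty vector of the lentiviral CRISPR-Cas9 system, with which the cells had been transduced, and RNA was taken after 2 weeks of growth. No treated, untransduced or normal blood sample was analysed here, so levels in leukemia cannot be set against those in healthy cells, and all values describe 1 line.

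miRNAs are short RNAs that are cut from hairpins, loaded into Argonaute proteins and guided to messenger RNAs by a seed, which is bases 2 to 8. Either arm of a hairpin, termed 5p and 3p, can be loaded, and the less abundant arm is usually degraded. The miR-29 family is known for its action through the 3p arms on the DNA methyltransferases DNMT3A and DNMT3B, on DNMT1 by way of the transcription factor SP1, on the TET enzymes that oxidise methylated DNA, on the survival protein MCL1, on the cell cycle kinase CDK6 and on collagens. In AML it is described as a tumor suppressor whose loss goes with increased DNA methylation and increased MCL1.

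The mature sequences are shown because likeness between members limits what the counts can resolve. They were taken from RefSeq (GRCh38.p14), which held all 7 names, and are written 5′ to 3′ with the seed in capitals. The 3p arms were as follows.
miR-29a-3p: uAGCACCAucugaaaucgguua
miR-29b-3p: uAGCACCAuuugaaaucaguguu
miR-29c-3p: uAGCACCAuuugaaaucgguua
All of these share the seed AGCACCA, and no other listed miRNA with a RefSeq sequence had it. With positions counted from 1 at the 5′ end, miR-29c-3p differed from miR-29a-3p by the single change C10U, which lies outside the seed. miR-29b-3p differed from miR-29a-3p by C10U, G18A, U21G and A22U over 22 positions, and it alone held the hexamer AGUGUU, which starts at position 18 and has been described as a nuclear import signal of miR-29b. The same miR-29b-3p is made from both miR-29b-1 and miR-29b-2, so a read of it does not tell its hairpin.

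The 5p arms do tell the hairpins apart, which is why they are shown as well.
miR-29a-5p: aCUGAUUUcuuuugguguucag
miR-29b-1-5p: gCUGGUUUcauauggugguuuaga
miR-29b-2-5p: cUGGUUUCacaugguggcuuag
miR-29c-5p: uGACCGAUuucuccugguguuc
Their seeds all differed, and none was shared with another listed miRNA that had a RefSeq sequence. The arms miR-29b-1-5p and miR-29b-2-5p aligned with 20 identical and 2 mismatched bases, but the former starts 1 base earlier, which shifts its seed.

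The hairpins lie in 2 clusters, both on the minus strand. Positions are those of RefSeq on GRCh38.p14 and were not taken from the deposited tables, which list names only. On chromosome 7, miR-29a lies from 130876747 to 130876810 and miR-29b-1 from 130877459 to 130877539, with 648 bases between them. In GENCODE v29, miR-29b-1 falls in an exon of the long noncoding RNA LINC-PINT, and an exon of LINC-PINT covers part of miR-29a. The long noncoding RNA gene AC016831.6 on the same strand spans both hairpins, as does LINC00513 on the other strand. On chromosome 1, miR-29c lies from 207801852 to 207801939 and miR-29b-2 from 207802443 to 207802523, with 503 bases between them, and both fall in exons of MIR29B2CHG, their host transcript. The mature miR-29a-3p maps to chr7:130876748-130876769, miR-29c-3p to chr1:207801865-207801886, and miR-29b-3p to both chr7:130877467-130877489 and chr1:207802450-207802472. As transcription runs toward lower coordinates, the miR-29b hairpin is the upstream member of each cluster. Hairpins of a cluster can be cut from 1 primary transcript.

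The libraries held 12694823, 10991953 and 11682129 counts on mature miRNAs in replicates 1, 2 and 3. Replicate 1 stood apart from the others. In that library 38.5% of counts were miR-21-5p, against 26.8% and 20.2%, and the median mature miRNA in replicates 2 and 3 was at 1.39 and 1.49 times its FPKM in replicate 1. FPKM divides the reads of a feature by its length in kilobases and by the size of the library. All 7 white blood cell miRNAs checked had a row and ran from 53.2 FPKM (miR-150-5p) to 1100890 FPKM (miR-155-5p) in the mean. At 7 to 21 counts per library, miR-150-5p was near the lower end of the table and below every marker of other tissues checked. All 5 markers of other tissues also had a row, with 231 FPKM for the liver miRNA miR-122-5p at the lower end and 340814 FPKM for miR-9-5p at the upper end. The latter is neural, but is also known from leukemias with an MLL rearrangement. The part of these other transcripts in the miR-29 values was not tested.

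Among the 3p arms, miR-29a-3p was by far the most abundant. It had 58531, 118035 and 129061 FPKM in replicates 1, 2 and 3 (15607, 27252 and 31669 counts), a mean of 101876 ± 37940 FPKM (SD, n = 3) that ranked 54 of 783. miR-29b-3p had 2481, 3965 and 3723 FPKM, with 3389 ± 796 (SD, n = 3) and rank 199. miR-29c-3p had 649, 1434 and 1430 FPKM, with 1171 ± 452 (SD, n = 3) and rank 270. Replicate 1 was the lowest for each of the 3, and no library of a lower arm reached any library of the arm above it. Within libraries, miR-29a-3p exceeded miR-29b-3p by 23.6-, 29.8- and 34.7-fold and miR-29c-3p by 90.2-, 82.3- and 90.2-fold. Of the FPKM of the 3 arms together, miR-29a-3p made up 95.6% ± 0.620, miR-29b-3p 3.34% ± 0.634 and miR-29c-3p 1.09% ± 0.0595 (SD, n = 3). Almost all reads with the seed AGCACCA were thus listed as miR-29a-3p.

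The 5p arms were listed at much lower levels, and miR-29c, the lowest of the 3p arms, led them. miR-29c-5p was found with 349, 572 and 432 FPKM in replicates 1, 2 and 3 (93, 132 and 106 counts) and a mean of 451 ± 113 (SD, n = 3). miR-29b-2-5p had 124, 243 and 375 FPKM (33, 56 and 92 counts), with a mean of 247 ± 126 (SD, n = 3). miR-29b-1-5p had 85.6, 218 and 290.2 FPKM (25, 55 and 78 counts), with a mean of 198 ± 104 (SD, n = 3). The partner strand of the dominant miR-29a-3p, miR-29a-5p, had the lowest mean of the family. It was listed at 71.3, 225 and 208 FPKM (19, 52 and 51 counts), with a mean of 168 ± 84.3 (SD, n = 3) that ranked 455 of 783. miR-29c-5p was above miR-29b-2-5p in 3 of 3 libraries and by more than the larger SD, although the ranges over libraries overlapped. The means of miR-29b-2-5p and miR-29b-1-5p were 49.3 FPKM apart and those of miR-29b-1-5p and miR-29a-5p 29.7 FPKM apart, each within the SD of either arm. Within libraries, miR-29b-2-5p was above miR-29b-1-5p in 3 of 3 and miR-29b-1-5p above miR-29a-5p in 2 of 3. Of the FPKM of the 4 arms together, miR-29c-5p made up 55.4%, 45.5% and 33.1% in replicates 1, 2 and 3, and miR-29a-5p 11.3%, 17.9% and 15.9%. The lowest share that miR-29a-3p had of the 3p arms was 94.9%, in replicate 1.

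**Figure D1:**
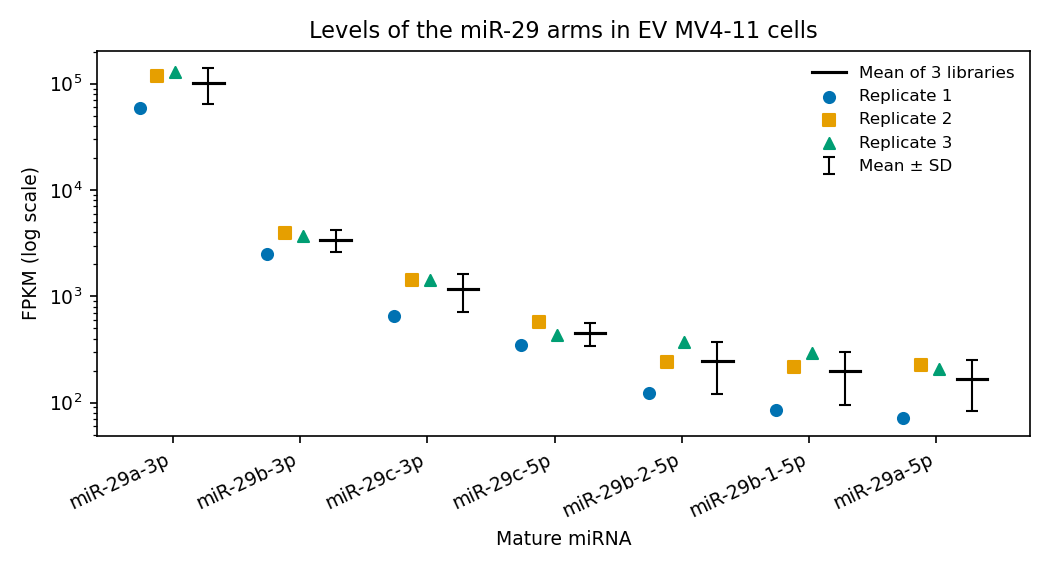
FPKM (log scale) of the 7 mature miR-29 arms, ordered by their mean, with a point for each of the 3 EV libraries and a bar for the mean and its SD. miR-29a-3p, with a mean of 101876 FPKM, lies far above the others, and the 5p arms end with miR-29a-5p at 168 FPKM.

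At these counts the precision of the 5p arms was limited. Scaled to 1000000 counts, the 3 libraries gave 1.497, 4.73 and 4.37 for miR-29a-5p, with Wilson 95% intervals of 0.958 to 2.34, 3.61 to 6.20 and 3.32 to 5.74. The interval of replicate 1 did not reach those of the other libraries. miR-29b-1-5p gave 1.97 (1.33 to 2.91), 5.004 (3.84 to 6.51) and 6.68 (5.35 to 8.33), and miR-29b-2-5p 2.60 (1.85 to 3.65), 5.09 (3.92 to 6.62) and 7.88 (6.42 to 9.66). Replicate 1 was again apart, whereas replicates 2 and 3 overlapped for both arms. miR-29c-5p gave 7.33 (5.98 to 8.97), 12.01 (10.1 to 14.2) and 9.07 (7.50 to 11.0), so that only replicates 1 and 2 were apart. For miR-29a-3p, with its far larger counts, the intervals were narrow, at 2479 (2450.0 to 2509) in replicate 2 and 2711 (2681 to 2741) in replicate 3, and these libraries differed by more than counting error. The intervals cover counting error only, as these reads carry no molecular identifiers. How evenly the library preparation captured different sequences was not tested, so shares, ranks and ratios between miRNAs describe reads, not cell content.

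The family was a small part of the miRNA reads in these libraries. Its 7 arms made up 0.131%, 0.264% and 0.287% of the summed FPKM of all mature miRNAs in replicates 1, 2 and 3, or 0.227% ± 0.0842 (SD, n = 3). The share in replicate 1 was below those of both other libraries. Without miR-21-5p in the total it was 0.312%. To compare families, the 679 mature names with a RefSeq sequence were grouped by seed, which gave 580 seeds. The miR-29 seed ranked 36 with 106436 ± 39149.6 FPKM (SD, n = 3), between the seeds of miR-223-5p and miR-374b-5p. Among the 66 seeds that had 2 or more names it ranked 18. Its leading member made up 95.7% of the seed, against a median of 79.0% over the 66 seeds, and in 13 of them the leading member made up more.

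Which arm of each hairpin was the more abundant was tested on counts within libraries for the 209 miRNAs with both arms listed, after copies of a hairpin were pooled. A pair was called with an adjusted p-value under 0.05 and a ratio of at least 2-fold. Calls toward 3p were made for 41.1% of the pairs, and for 82.3% in either direction, so that a call by itself says little. miR-29a, miR-29b and miR-29c were all called toward 3p. For miR-29a the log2 ratio of 3p to 5p was 9.31 ± 0.32 (SE, edgeR quasi-likelihood adjusted p = 7.958e-06), which is 634-fold and had rank 5 of 209 toward 3p. For miR-29b it was 3.05 ± 0.35 (edgeR adjusted p = 0.0004685), or 8.29-fold, close to the median absolute log2 ratio of 3.39 over all pairs. For miR-29c it was 1.32 ± 0.31 (edgeR adjusted p = 0.009587), or 2.49-fold. The call was lost without replicate 2, at 1.31 ± 0.57 (edgeR adjusted p = 0.09794), and without replicate 3, at 1.11 ± 0.63 (edgeR adjusted p = 0.0954). The SE of miR-29a also grew, to 0.58 and 0.68, and that of miR-29b to 0.62 and 0.66, and both kept their calls. Without replicate 1 the call of miR-29c was kept at 1.52 ± 0.26 (edgeR adjusted p = 1.952e-08). That fit rests on 2 libraries and its SE is close to that of the full fit, so the smaller p-value is not read as stronger evidence.

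**Figure D2:**
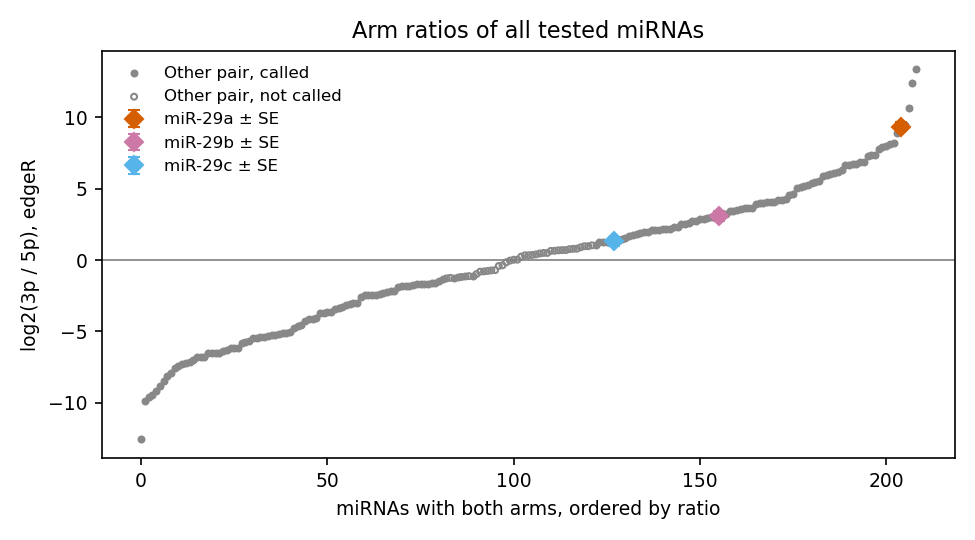
Log2 ratio of 3p to 5p counts for the 209 miRNAs with both arms, ordered from lowest to highest, where filled points are called and diamonds with SE bars are the miR-29 members. miR-29a at 9.31 lies near the upper end, miR-29b at 3.05 and miR-29c at 1.32 in the range of many other pairs.

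The hairpins of the family spanned a wide range of arm ratios. Counts of 3p over 5p were 821, 524 and 621 for miR-29a in replicates 1, 2 and 3. They were 15.2, 9.18 and 6.42 for miR-29b-1 and 9.48, 8.11 and 4.96 for miR-29b-2, with the 3p reads divided between these hairpins as listed. For miR-29c they were 1.86, 2.51 and 3.31. The miR-29a and miR-29c ratios did not overlap with those of the miR-29b hairpins, whereas the ranges of miR-29b-1 and miR-29b-2 overlapped. The 5p arm made up 0.122%, 0.190% and 0.161% of the arm counts of miR-29a and 35.0%, 28.5% and 23.2% of those of miR-29c. Reads outside the arms were rare. The hairpin rows exceeded the sum of their arms by at most 9 counts, which was in miR-29b-2, and by at most 4 in miR-29a.

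**Figure D3:**
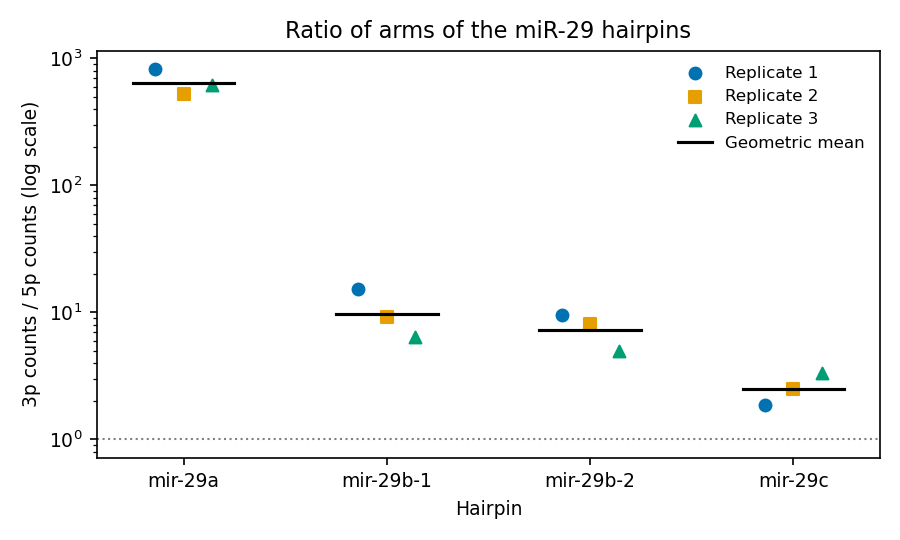
Ratio of 3p to 5p counts (log scale) for each miR-29 hairpin, with a point for each library, a line for the geometric mean and a dotted line at equal counts. Every point lies above the dotted line, from 1.86 for miR-29c in replicate 1 to 821 for miR-29a in replicate 1.

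Because miR-29a-3p and miR-29c-3p differ by C10U alone, their counts were set against each other. miR-29c-3p counts were 1.11%, 1.21% and 1.11% of those of miR-29a-3p in replicates 1, 2 and 3. By contrast, miR-29b-3p counts were 4.44%, 3.52% and 3.02% of those of miR-29a-3p. The mean ratio was 1.14% for miR-29c-3p (SD 0.0613 percentage points) and 3.66% for miR-29b-3p (SD 0.720). As the means differ, these SDs cannot be compared directly, and miR-29c-3p had only 173 to 351 counts per library. How many mismatches the alignment allowed is not given in the sources used here, and reads moved from one name to the other by an error at position 10 were not tested for. As a reference, 17 pairs of listed mature miRNAs with RefSeq sequences differ by a single base over at least 20 positions. In 6 of them the lower name had a smaller share of the higher than miR-29c-3p had of miR-29a-3p, down to 0.291% for miR-18b-5p relative to miR-18a-5p. The 5p arms of miR-29a and miR-29c differ more, with 17 identical and 3 mismatched aligned bases, and there miR-29c exceeded miR-29a by 4.89-, 2.54- and 2.078-fold in counts.

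The origin of miR-29b was asked from its rows. The mature table gives miR-29b-3p in 2 rows, each of which, added to a copy-specific 5p arm, comes within 9 counts of 1 hairpin row. The row that goes with miR-29b-1 held 380, 505 and 501 counts in replicates 1, 2 and 3 and the other 313, 454 and 456. The former thus had 54.8%, 52.7% and 52.4% of miR-29b-3p, with Wilson 95% intervals of 51.1% to 58.5%, 49.5% to 55.8% and 49.2% to 55.5%. An even split was within the interval in replicates 2 and 3. As the mature sequences are identical, this near-even division cannot be read as the output of each locus. Of the 5p counts, which do differ in sequence, miR-29b-1 held 43.1% (31.2% to 55.9%), 49.5% (40.4% to 58.7%) and 45.9% (38.6% to 53.4%). An even split was within every interval, so a difference between the miR-29b copies was not detectable at this depth.

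The levels of the hairpins were compared next to see how the clusters relate. miR-29a had 19491, 39317 and 42974 hairpin FPKM in replicates 1, 2 and 3, with 33927 ± 12635 (SD, n = 3) and rank 46 of 661. miR-29b-1 had 399, 638 and 624 FPKM, with 554 ± 134 (SD, n = 3) and rank 195. miR-29b-2 had 343, 582 and 594 FPKM, with 506 ± 142 (SD, n = 3) and rank 198. miR-29c had 240.3, 484 and 448 FPKM, with 391 ± 132 (SD, n = 3) and rank 220. The miR-29a hairpin stood apart in every library. The means of miR-29b-1 and miR-29b-2 were 47.5 FPKM apart and those of miR-29b-2 and miR-29c 115 FPKM apart, both within an SD of 142, though the order was the same in 3 of 3 libraries. miR-29b-1 exceeded miR-29b-2 by 1.16-, 1.10- and 1.05-fold, but this order rests on how identical miR-29b-3p reads were divided. Their 5p counts had the opposite order, with 25, 55 and 78 for miR-29b-1 and 33, 56 and 92 for miR-29b-2. An even split was within the interval of each library there, as given above.

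Neighbours within a cluster were compared in a test over all 70 adjacent hairpin pairs within 10000 bases on a strand, with hairpin length taken into account. Of these pairs 75.7% were called, 42.9% with the downstream and 32.9% with the upstream hairpin the higher. On chromosome 7, miR-29a exceeded its upstream neighbour miR-29b-1 by 5.89 ± 0.18 on the log2 scale (SE, edgeR quasi-likelihood adjusted p = 3.441e-05), or 59.2-fold, and did so in 3 of 3 libraries with 48.9-, 61.6- and 68.9-fold in FPKM. On chromosome 1, miR-29c was not called different from miR-29b-2, with a log2 ratio of -0.39 (95% interval -0.81 to 0.02, edgeR adjusted p = 0.06541). In FPKM miR-29b-2 was the higher in 3 of 3 libraries, by 1.43-, 1.20- and 1.33-fold, which is under the 2-fold that a call required. The miR-29b copies share their 3p reads, so the levels of both pairs depend on how those reads were divided.

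Summed over its hairpins, the cluster on chromosome 7 had 19890.2, 39955 and 43598 FPKM and that on chromosome 1 had 583, 1065 and 1042 FPKM in replicates 1, 2 and 3. The former was higher by 34.1-, 37.5- and 41.8-fold, a log2 ratio of 5.24 ± 0.15 (SD, n = 3). With the 5p arms alone the direction was the opposite. The 5p arms of chromosome 7 summed to 44, 107 and 129 counts and those of chromosome 1 to 126, 188 and 198, a ratio of 0.349, 0.569 and 0.652. The log2 ratio was -0.98 ± 0.47 (SD, n = 3), below 0 in 3 of 3 libraries. Both ratios are descriptions with no test, and an exact sign-flip permutation over 3 libraries could not give a two-sided p below 0.25. The chromosome 7 cluster was thus the higher in hairpin FPKM, where miR-29a-3p made up most of its reads, and the chromosome 1 cluster was the higher in 5p counts.

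**Figure D4:**
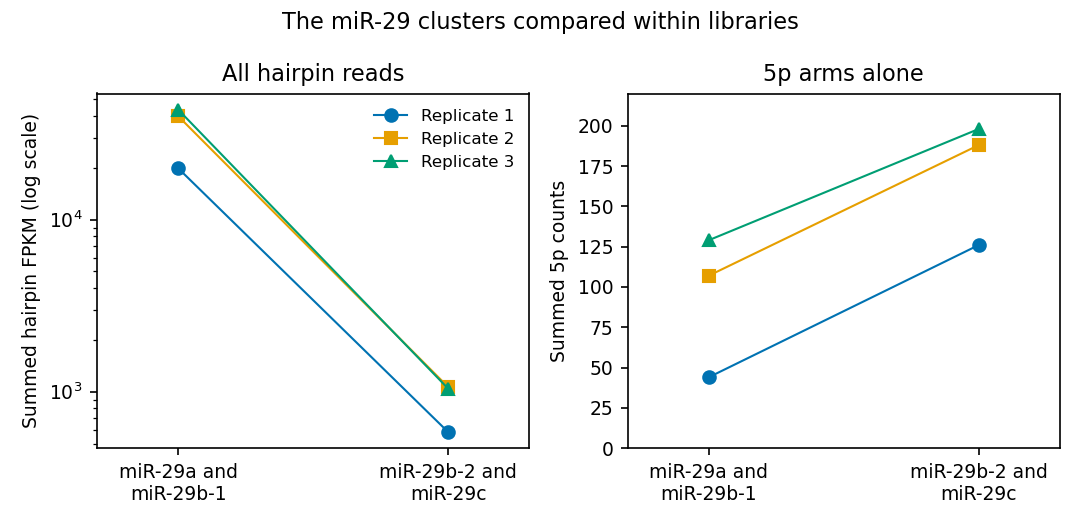
Sums over the cluster of miR-29a and miR-29b-1 on chromosome 7 and that of miR-29b-2 and miR-29c on chromosome 1, as hairpin FPKM (left, log scale) and as 5p counts (right, linear scale from 0), with a line for each library. All lines fall on the left and all rise on the right, where they run from 44, 107 and 129 counts to 126, 188 and 198.

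The replicates were examined to learn how far these levels can be trusted. In replicates 2 and 3, miR-29a-3p was at 2.02 and 2.20 times its FPKM in replicate 1 and miR-29c-3p at 2.21 and 2.20 times. miR-29b-3p was at 1.60 and 1.501 times, near the median miRNA at 1.39 and 1.49. The 5p arms ranged from 1.24 times (miR-29c-5p in replicate 3) to 3.39 times (miR-29b-1-5p in replicate 3). In cultures of whole cells, fewer cells that express a miRNA and less of it per cell cannot be told apart. The coefficient of variation of miR-29a-3p was 37.2%, against a median of 29.1% for the 163 mature miRNAs with at least 1000 counts in every library. After scaling by the median of ratios it was 20.8%, against 21.7%. For miR-29b-3p it was 23.5% before and 7.88% after scaling, against medians of 24.4% and 21.7% for the 167 miRNAs whose lowest library had at least 100 but under 1000 counts. For miR-29c-3p, in the same range of counts, it was 38.6% before and 23.3% after scaling. Among the 5p arms miR-29c-5p was the steadiest, with 17.0% after scaling, and the others had 35.6% to 38.4%, against a median of 27.6% for 285 miRNAs with 10 or more but under 100 counts in their lowest library. After scaling, miR-29a-3p in replicates 2 and 3 was still at 1.45 and 1.49 times replicate 1, while miR-29b-3p was at 1.15 and 1.02 times. The share of miR-29b among the 3p arms went from 4.02% in replicate 1 to 3.21% and 2.77% in the others.

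**Figure D5:**
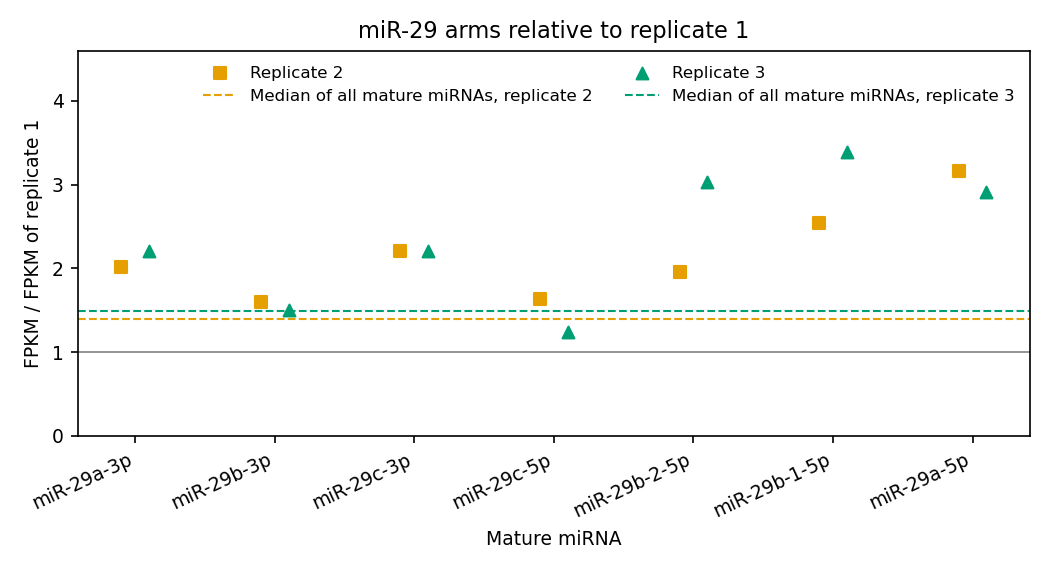
FPKM of each miR-29 arm in replicates 2 and 3 divided by that in replicate 1, with dashed lines for the median of all mature miRNAs (1.39 and 1.49) and a solid line at 1. The miR-29b-3p points lie close to the dashed lines at 1.60 and 1.501, and those of miR-29a-3p and miR-29c-3p above them, at 2.02 to 2.21.

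The miRNAs whose levels varied most like miR-29a-3p were looked up among those 163, by the root mean square difference of log2(FPKM + 1) after centring over the 3 libraries. The closest 5 were miR-3613-5p (0.028), miR-126-5p (0.031), miR-103a-3p (0.043), miR-124-5p (0.043) and miR-191-5p (0.050). miR-3613-5p had 22554, 47683 and 50888 FPKM in replicates 1, 2 and 3. Like miR-29a-3p, all of these were lowest in replicate 1 and highest in replicate 3, which follows from how they were picked. The likeness rests on 3 libraries, of which replicate 1 differed in its make-up, and is a description only.

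The levels of other miRNAs known to act on the same targets were set beside those of miR-29. The mature table holds no messenger RNA, so the targets themselves were not measured here. Of 12 such miRNAs on 2 lists, 11 had a row, and 5 of these were above miR-29a-3p in every library. Over all 783 mature miRNAs, miR-29a-3p ranked 54 by its mean, within the highest 6.90%. The lists were chosen with earlier results of these data known, and whether their levels exceed those of other miRNAs was not tested. The list for enzymes of DNA methylation held 8 miRNAs, all of them with a row, and its median was 16.24 on the log2(FPKM + 1) scale, against 8.05 over all 783 mature miRNAs. miR-148a-3p, which acts on DNMT1 and DNMT3B, had 3677130, 2395600 and 1826500 FPKM. It exceeded miR-29a-3p in every library, as did miR-148b-3p, miR-185-5p (both DNMT1) and miR-101-3p. miR-143-3p, which acts on DNMT3A, was below miR-29a-3p in every library with 16964, 12529 and 11425 FPKM, and so were miR-152-3p, miR-342-3p and miR-22-3p, a regulator of TET2. For miR-185-5p and miR-152-3p the ranges over libraries overlapped with that of miR-29a-3p. miR-143-3p and miR-148a-3p were both highest in replicate 1, unlike the miR-29 arms and the other members of this list.

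On the list for MCL1, 4 of 5 miRNAs had a row, with a median of 17.25 on the log2(FPKM + 1) scale, and miR-125b-5p had none. miR-101-3p had 364223, 391649 and 370819 FPKM and miR-181a-5p had 196740, 260338 and 245665 FPKM in replicates 1, 2 and 3, both above miR-29a-3p in every library. miR-181b-5p had 71901, 116656 and 135086 FPKM, above miR-29a-3p in 2 of 3 libraries, and their ranges overlapped. miR-193b-3p was near the lower end of the table, with 7 to 16 counts per library. In all, miR-29a-3p lay within the range of the other listed miRNAs for these targets, while miR-29b-3p was below all of them but miR-193b-3p in every library.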

How the data were processed

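Small RNA of 3 EV samples of MV4-11 cells was sequenced by the authors after column isolation and New England Biolabs library preparation. Reads were counted over miRBase v21 mature and hairpin annotations. The submitters' processing notes name Novoalign 2.08.03 and the builds hg19 and mm10 without roles. Trimming and mismatch settings are not given in the sources used here. The deposited tables hold whole read counts and FPKM computed by the authors, with feature lengths 1 base shorter than the sequences. A row is listed where at least 1 library reached 10 counts. Mature rows of a name were summed.

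Levels are deposited FPKM (mean ± SD). Intervals are Wilson intervals. Arm pairs and adjacent hairpins were tested on counts with edgeR 4.0.16 in R 4.3.3 (glmQLFit and glmQLFTest, library as a block, Benjamini-Hochberg), with at least 10 counts per pair and library. The replicates are of 1 line, and the paper does not state whether they were separate cultures. The script was tested on data simulated with less spread than in these pairs, which checks the code and not the error rates here. A simulated log2 ratio of 2 had a median estimate of 1.88 for arms and 1.73 for neighbours. Of 661 hairpins, 523 had a RefSeq position. Alternatives used limma 3.58.1, DESeq2 1.42.0, TMM or median-of-ratios factors, other filters and left-out replicates. Other values used Python 3.11.15 and scipy 1.17.1. Members and lists were chosen with earlier results of these data known. Named miRNAs were the miR-29 arms and hairpins, the 5 nearest in pattern to miR-29a-3p and the members of the target lists, and the marker lists are summarised. Names used as landmarks beside these, such as miR-18b-5p, were picked after their values were seen.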

Additional observations from a re-analysis of the deposited data

How the results depend on the processing

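Of 130 values recomputed under an alternative, 123 kept their direction and side of the threshold, moved by less than the SD between libraries or, for counts of called pairs, stayed within 1.5 times the count reported. The log2 ratio of the chromosome 7 to the chromosome 1 cluster, 5.24, was reversed to -0.98 with copy-specific 5p arms, and was 6.42 for miR-29a against miR-29c alone and 4.84 in counts. The family share of 0.227% was 0.312% without miR-21-5p in the total, and miR-29b-3p was 1799 FPKM with only its highest row, since fewer reads then enter the value by construction. The arm call of miR-29c was lost without replicate 2 and without replicate 3, as given above, and the cause was not tested. Pairs called ranged from 149 to 181 of 209 for arms, and from 52 to 55 of 70 for neighbours, with a replicate left out. The filter on low counts removed no pair, and TMM factors cancel between arms of a library, so these say nothing about stability. Nor do left-out replicates for values without a test, as leaving out 1 library cannot shift such a mean by its SD. Taking the highest row leaves every arm but miR-29b-3p unchanged by construction. Dropping the threshold on size reuses the same fit, so the ratios of the members cannot change. Median-of-ratios and TMM factors were scaled to a geometric mean of 1, so they could shift a mean level only a little. Samples could not be paired between groups because there is 1 group, whereas the tests of arms and of neighbouring hairpins were paired within libraries. The 5p arms rest on 19 to 132 counts per library, which limits their ratios.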
